A study of Mus musculus with 2 samples.

Results

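The mouse Hox genes are homeobox transcription factors that lie in 4 clusters, Hoxa, Hoxb, Hoxc and Hoxd, and all rows of the count tables whose symbol is one of these letters followed only by a number were taken. This gave 39 Hox genes of the 19430 genes in the tables, 11 Hoxa, 10 Hoxb, 9 Hoxc and 9 Hoxd genes, and antisense transcripts were left out. They were read in 2 Visium sections, taken here as cuts through 1 paraffin block. This block held the distal tibia fracture callus of 1 control and 1 Nf1Postn mouse. The mice were female littermates aged 8 weeks at surgery, and both calluses were collected 10 days post fracture. The control carried Nf1[+/flox] without Cre. The Nf1Postn mouse carried Postn-cre;Nf1[flox/-], that is 1 germline null allele in every cell and a floxed allele open to Cre only where the Postn promoter, active in periosteal and other mesenchymal cells, had been on. The labels call the sections biological replicates. The paper speaks of a control and an Nf1Postn callus and of paired samples in the same block. The sections were therefore taken, here and below, as cuts through the same 2 mice, which the sources used here do not state outright. On this reading no difference between genotypes or tissues could be tested, and intervals given below are 95% intervals that cover counting error only.

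Along each cluster, genes are numbered from 1 to 13 by paralog group, and genes with the same number in different clusters descend from 1 ancestral gene. In the developing limb, genes with high numbers of the Hoxa and Hoxd clusters set identity from hip to toe, Hoxa11, Hoxc11 and Hoxd11 in the segment of the tibia and Hoxa13 and Hoxd13 in the foot, while genes with low numbers are best known from the trunk and hindbrain. Adult bone-forming and stromal cells keep part of the Hox pattern of the place where they arose, and Hoxa11 is known to mark stromal cells of the periosteum in this segment.

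The Hox proteins bind DNA through the homeodomain, encoded by the homeobox. A homeobox of 180 bases was found in the GENCODE M39 annotation of all 39 genes (build GRCm39, the mm39 build of the deposited coordinates). The 4 printed here, of genes on which results below turn and of Hoxd10, their paralog, are read 5′ to 3′ along the gene, with the 18 bases that encode the core of the DNA-contacting helix in capitals.
Hoxa10 (exon 2, chr6:52209534-52209713, minus strand): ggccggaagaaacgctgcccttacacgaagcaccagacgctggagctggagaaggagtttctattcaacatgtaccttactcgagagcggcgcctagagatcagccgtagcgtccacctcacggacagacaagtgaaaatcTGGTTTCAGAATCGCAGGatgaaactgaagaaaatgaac
Hoxc10 (exon 2, chr15:102879283-102879462, plus strand): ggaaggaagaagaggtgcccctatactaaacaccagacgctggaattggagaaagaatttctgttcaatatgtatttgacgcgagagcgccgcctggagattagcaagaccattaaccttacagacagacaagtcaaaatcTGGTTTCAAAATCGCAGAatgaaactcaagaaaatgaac
Hoxd10 (exon 2, chr2:74524485-74524664, plus strand): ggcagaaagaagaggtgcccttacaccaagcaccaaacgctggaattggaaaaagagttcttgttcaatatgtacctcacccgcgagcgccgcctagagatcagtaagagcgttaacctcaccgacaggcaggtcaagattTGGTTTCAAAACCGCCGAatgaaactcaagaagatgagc
Hoxa13 (exon 2, chr6:52235908-52236087, minus strand): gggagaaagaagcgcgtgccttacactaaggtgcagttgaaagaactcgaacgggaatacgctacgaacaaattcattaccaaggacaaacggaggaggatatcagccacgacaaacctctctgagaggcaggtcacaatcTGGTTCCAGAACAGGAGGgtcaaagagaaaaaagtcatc
Homeoboxes of the same paralog number shared a median of 80.6% of bases over 42 pairs, against 60.6% over the other 699 pairs. Hoxa10 shared 145 of 180 bases with Hoxc10 and 142 with Hoxd10, and Hoxc10 shared 149 with Hoxd10. The most alike pair, Hoxa3 and Hoxb3, shared 93.9%. No 2 homeoboxes were thus the same in every base, but some were close, and which bases the Visium probes target is not given in the sources used here. Counts of different genes therefore say how many UMIs were read and not which gene is more abundant. The comparisons below set each gene against its own level elsewhere.

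On mm39, the Hoxa genes span positions 52132570 to 52237789 of chromosome 6, the Hoxb genes 96085142 to 96259083 of chromosome 11, the Hoxc genes 102829538 to 102945279 of chromosome 15 and the Hoxd genes 74498654 to 74595487 of chromosome 2. In the deposited coordinates Hoxa3 overlaps Hoxa4, Hoxa5 and Hoxa6, Hoxc5 overlaps Hoxc6, Hoxc8, Hoxc9 and Hoxc10, and Hoxd3 overlaps Hoxd4, so that a probe in a shared stretch could read either gene.

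The sections held 6380 spots under tissue with 3.51e+07 unique molecular identifiers in all (UMIs, 1 per captured probe pair). The median spot of the control held 7053 UMIs in section 1 and 5718.5 in section 2, and that of the Nf1Postn callus 2030 and 3239.75. The sections shared 2711 spot barcodes, which are printed array positions and not shared cells. A Visium spot covers several cells, so fewer cells of a type and less RNA per cell cannot be told apart in any value below. The targeted gene, Nf1, read 87.8 and 79.0 CPM (UMIs of a gene per 1000000 UMIs of the same spots) in the control sections and 65.6 and 49.6 CPM in the Nf1Postn sections, but whether its probes lie in the floxed exons is not known. Of the factors that mark the hindlimb, Tbx4 read 14.2 and 15.1 CPM in the control and 12.4 and 8.86 CPM in the Nf1Postn callus, and Pitx1 read 9.88 and 9.40 against 3.75 and 3.84 CPM. The forelimb factor Tbx5 held 14 UMIs in the control and 8 in the Nf1Postn callus, so the hindlimb factors were read in both calluses and the forelimb factor hardly at all.

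All 39 Hox genes were read above the limit that a count of 0 allows (3 UMIs) in at least 1 section and genotype, and 33 of them in both sections of both genotypes. Together they held 23118 UMIs, or 658 CPM, with a median of 310 UMIs per gene against 343 over all genes. The 12 genes with the most UMIs held 75.7% of the Hox UMIs, 2824 of them in Hoxa10. By cluster, the Hoxa genes held 40.2% of the Hox UMIs, Hoxc 33.9%, Hoxd 15.8% and Hoxb 10.1%. By paralog number, group 9 held 20.8%, group 10 15.5%, group 4 14.9%, group 5 12.3% and group 11 9.69%, while groups 13 (2.84%), 2 (2.79%), 7 (1.54%), 1 (0.381%) and 12 (0.234%) held under 3% each. These shares count UMIs, and they depend on how many genes and probes a group has.

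Counts per spot were small. The median control spot held 4 Hox UMIs from 3 genes and the median Nf1Postn spot 1 UMI from 1 gene, and no spot held more than 8 UMIs of 1 Hox gene. Spots with any Hox UMI made up 92.6% and 90.4% of the control sections and 66.8% and 77.6% of the Nf1Postn sections. Thinned to 1000 UMIs per spot, with shallower spots left out, the shares were 46.2% and 51.5% in the control and 48.0% and 41.9% in the Nf1Postn callus, so the shares of the 2 genotypes overlapped at equal depth. This left out 45 and 83 control spots and 215 and 113 Nf1Postn spots. The summed Hox level was 640 and 698 CPM in the control sections and 695 and 597 CPM in the Nf1Postn sections, which also overlap.

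The 12 genes with the most UMIs are given by section. Among the limb genes of the Hoxa cluster, Hoxa10 read 76.5 and 91.9 CPM in the control sections and 75.4 and 68.7 CPM in the Nf1Postn sections. Hoxa9 read 57.2 and 61.5 CPM against 48.2 and 52.0 CPM. Hoxa11, the gene of the tibial segment, read 50.2 and 52.6 CPM against 52.6 and 36.4 CPM. Both Nf1Postn sections lay below both control sections for Hoxa10 and Hoxa9, with log2 ratios of -0.24 and -0.23 over both sections, and the sections overlapped for Hoxa11.

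Hoxc5 and Hoxc4 lie at the low-numbered end of their cluster. Hoxc5 read 57.4 and 56.6 CPM in the control sections and 65.0 and 46.1 CPM in the Nf1Postn sections, and Hoxc4 read 54.4 and 57.2 against 62.4 and 47.5 CPM. For both genes, section 1 of the Nf1Postn callus lay above both control sections and section 2 below them. Hoxc9 read 43.7 and 43.1 CPM against 48.5 and 45.5 CPM, and Hoxc10 19.3 and 19.4 against 18.8 and 25.9 CPM.

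Of the Hoxd genes, Hoxd8 read 35.0 and 38.5 CPM in the control and 43.6 and 35.3 CPM in the Nf1Postn callus, Hoxd9 31.0 and 40.8 against 29.5 and 34.4 CPM, and Hoxd4 17.7 and 23.8 against 22.8 and 21.6 CPM. Hoxb6 read 22.0 and 25.7 CPM against 23.7 and 18.9 CPM. All 4 overlapped between genotypes. Hoxa3 completed the 12, with 19.1 and 21.4 CPM in the control against 27.2 and 16.2 CPM.

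**Figure D1:**
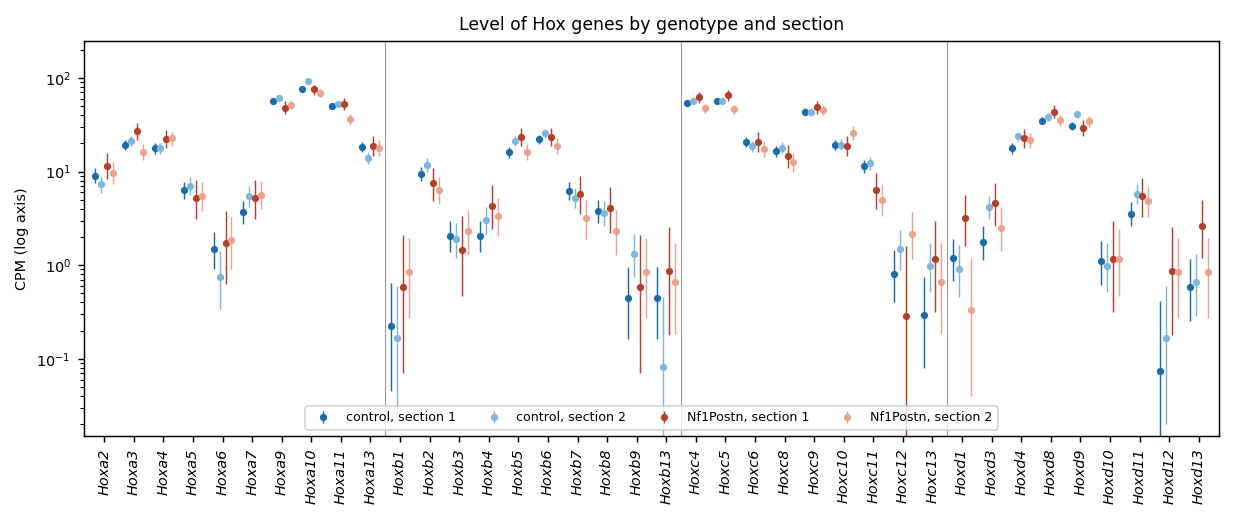
Level of 38 Hox genes in CPM (log axis), ordered along the Hoxa, Hoxb, Hoxc and Hoxd clusters, with 1 point for each genotype and section and bars for exact Poisson 95% intervals. Levels of 0 are not drawn and a few bars run off the lower edge. The 4 points of most genes lie close together, those of Hoxa10 read 68.7 to 91.9 CPM, and Hoxc11 has both Nf1Postn sections below both control sections.

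Of the genes of the foot, Hoxa13 held 589 UMIs and read 18.2 and 13.9 CPM in the control and 18.8 and 18.0 CPM in the Nf1Postn callus. Hoxd13, the other gene named for the foot, and the high-numbered genes Hoxd12, Hoxd10, Hoxc13, Hoxc12 and Hoxb13 each held at most 43 UMIs. None of these 6 had enough UMIs to enter the comparisons between tissues.

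To describe the Hox genes over the tissue, spots were grouped into 14 regions by Leiden clustering that left out the Hox genes, and each region is called here by its leading genes. A Hox gene was called higher or lower in a region where its CPM differed at least 2-fold from all other spots of the same genotype, pooled and in each section, and the share of all genes called the same way is given as background. Regions with at least 20 spots of a genotype in each section were compared, which left 10 regions in the control and 9 in the Nf1Postn callus. In the control, 28 Hox genes entered these comparisons, and 2 of the 280 pairs of a Hox gene and a region were called higher and 9 lower, against 2.26% and 3.43% of such pairs over all genes. In the Nf1Postn callus 20 Hox genes entered, and 2 of 180 pairs were called higher and 4 lower, against 2.06% and 3.95%.

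The lowest Hox level of the compared control regions lay in the spots led by Ucma, Scrg1, Cnmd and Acan, genes of cartilage that is not yet hypertrophic (148 control spots in section 1 and 70 in section 2, with 1 Nf1Postn spot). Here 8 Hox genes were lower than in the other control spots and none higher: Hoxb2, Hoxb4, Hoxb5, Hoxb6, Hoxb7, Hoxa2, Hoxa4 and Hoxd4. The sum of all Hox genes read 473 and 436 CPM. The calls were 8 of 28 against 14.6% of all genes called lower and 2.06% called higher. All 28 lay below the other spots, with a median log2 ratio of -0.61 against -0.42 over all genes tested. All 8 have paralog numbers under 8, and 5 of the 7 Hoxb genes that entered were among them. The count depended on how spots were grouped and summed. It was 2 in the closest region at clustering resolution 0.3, which shared few spots with this region and where Hoxa4 turned to 0.18. The count was 2 at resolution 1.0 and 0 with means of log2(CPM + 1) over spots. Such means also follow depth, and the median spot of this region held 12811.5 UMIs, the most of the 14 regions. The part of depth in this count was not tested.

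Hoxb5 read 3.72 CPM in this region against 18.5 CPM elsewhere in section 1 and 9.56 against 22.4 CPM in section 2, a pooled log2 ratio of -1.89 (-2.68 to -1.20). Hoxb6 read 8.84 against 24.5 and 8.49 against 27.2 CPM (-1.57, -2.18 to -1.01). Hoxd4 read 5.12 against 20.1 and 9.56 against 24.95 CPM (-1.80, -2.52 to -1.15). Each of these 3 was lower in both sections with a pooled interval that lay wholly beyond a 2-fold difference. In section 2 the region held 9 UMIs of Hoxb5, 8 of Hoxb6 and 9 of Hoxd4.

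Hoxb2 read 3.26 against 10.6 and 4.25 against 12.3 CPM (-1.69, -2.71 to -0.82), Hoxa2 4.19 against 9.99 and 2.12 against 7.78 CPM (-1.32, -2.35 to -0.45), and Hoxa4 9.30 against 19.3 and 7.43 against 18.6 CPM (-1.12, -1.74 to -0.56). Hoxb7 held 4 UMIs in the region (-2.30, -4.20 to -0.91). Hoxb4 held 3 UMIs, and its interval of -3.82 to 0.11 included no difference. In section 2 the region held 4 UMIs of Hoxb2, 2 of Hoxa2, 7 of Hoxa4 and 1 each of Hoxb7 and Hoxb4. The 2-fold fall of these genes in that section thus rested on few UMIs. Of the limb genes of the Hoxa cluster, Hoxa9 read 40.5 against 60.4 and 35.0 against 63.8 CPM (-0.68) and Hoxa10 55.8 against 80.4 and 66.9 against 94.0 CPM (-0.56), near the median of the 28. Hoxa11, at 48.8 against 50.5 and 41.4 against 53.6 CPM (-0.16), and Hoxa13, at 17.2 against 18.4 and 10.6 against 14.2 CPM (-0.10), stood closer to their level elsewhere.

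Across the 28 genes, the log2 ratio was higher for genes with higher paralog numbers (Spearman's rho 0.61, with 0.64 in section 1 and 0.30 in section 2; the genes share spots and libraries). In the other control regions rho lay between -0.19 and 0.26, at -0.16 in the Col10a1 region, and in the Nf1Postn regions between -0.48 and 0.65. The median was -1.12 for the 19 genes with numbers 1 to 8 and -0.20 for the 9 genes with numbers 9 to 13. All 7 Hoxb genes that entered have numbers from 1 to 8. Their median was -1.75, against -0.56, -0.29 and -0.44 for the Hoxa, Hoxc and Hoxd genes. The order by number thus overlaps with the low Hoxb levels, and the 2 were not separated. Summed by cluster, the Hoxb genes read 21.4 against 70.6 CPM in section 1 and 25.5 against 78.3 CPM in section 2 (-1.72, -2.08 to -1.37), while the Hoxa, Hoxc and Hoxd sums gave -0.54, -0.44 and -0.54.

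Cartilage transcripts took much of the RNA read in these spots, with the 9 cartilage markers holding 14.8% and 15.3% of the UMIs in the sections against 2.91% and 1.97% elsewhere in the control, and CPM are shares of that total. With TMM factors, which rescale on the bulk of genes, log2 ratios in this region rose by 0.40. The Hoxb sum was then -1.32, the Hoxa, Hoxc and Hoxd sums lay between -0.14 and -0.04, and Hoxb2, Hoxb6, Hoxb7 and Hoxd4 remained called, with 8.40% of all genes lower and the share of calls that were higher at 32.5% in place of 12.3%.

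The spots led by Col10a1 and Ihh, genes of hypertrophic and prehypertrophic chondrocytes, were compared with the Ucma region directly. No Hoxb gene and none of the 8 genes called lower in the Ucma region had enough UMIs to be read in this pair. Of the 12 Hox genes that had, none was called in either direction (background 2.36% higher and 2.42% lower), and their median log2 ratio, Ucma over Col10a1 region, was 0.01. The Hoxb sum was 22.6 CPM in the Ucma region against 49.7 CPM in the Col10a1 region (-1.13, -1.66 to -0.60), with -1.43 in section 1 and -0.31 in section 2, and Hoxa4, on 27 and 26 UMIs, gave -1.40 (-2.23 to -0.57). Against all other control spots, the Col10a1 region had no Hox call either (background 0.852% higher and 3.5% lower). Hoxa13 read 1.28 against 19.2 CPM there in section 1, on 1 UMI, and 11.5 against 14.0 CPM in section 2, on 4 UMIs. Its low level thus rested on section 1 and on few UMIs.

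**Figure D2:**
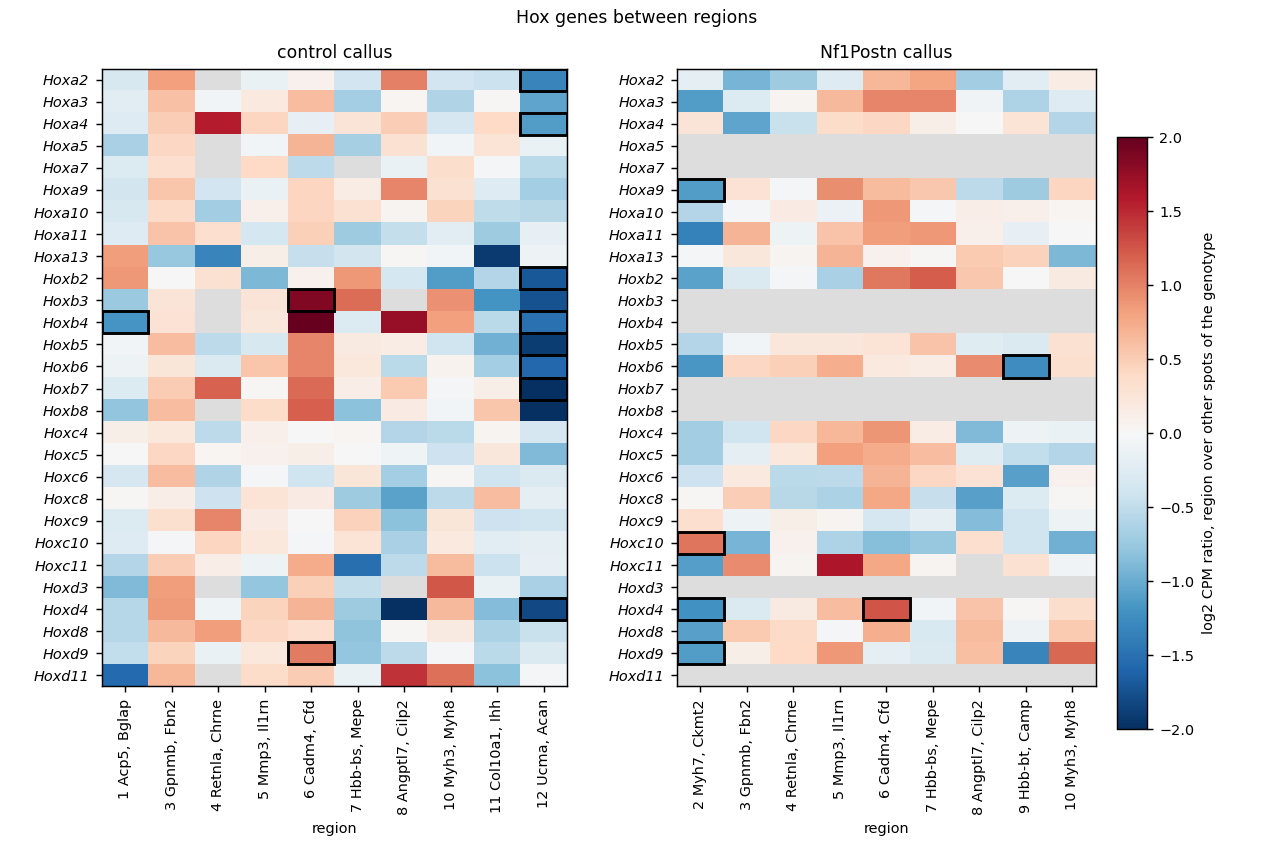
Log2 CPM ratio of each Hox gene (rows, in cluster order) in each compared region (columns) over all other spots of the same genotype, control left and Nf1Postn right, with the color scale ending at -2 and 2, gray for genes with too few UMIs and black frames around calls. The column of region 12 (Ucma, Acan) is blue throughout, most deeply for the Hoxb genes, and region 6 (Cadm4, Cfd) is red for them.

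The opposite pattern lay in spots led by Cadm4, Cfd, Cxcl14, Gap43 and Lgi4 (133 and 94 control spots, 134 and 102 Nf1Postn spots). There all 5 adipocyte markers and 5 of 7 granulocyte markers stood at least 2-fold above the other regions. So did 2 of 5 nerve markers (median log2 ratio 0.73) and 2 of 5 fibroblast markers (0.91). Of the macrophage markers 1 of 5 did, and of the tendon markers 1 of 6 (both medians 0.61). On the map these spots run along the borders of the calluses. In the control, Hoxd9 read 58.8 against 29.4 CPM in section 1 and 84.2 against 38.8 CPM in section 2 (log2 ratio 1.03, 0.70 to 1.35). Hoxb3 held 8 UMIs and read 5.47 against 1.87 and 7.65 against 1.64 CPM (1.86, 0.56 to 2.96). These 2 of 28 were called higher, against 2.67% of all genes, and the median over the 28 was 0.45 against 0.17 over all genes.

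The other Hoxb genes of this region pointed the same way without meeting the rule. Hoxb5 read 32.8 against 15.2 and 38.3 against 20.6 CPM (0.98), Hoxb6 39.6 against 21.0 and 51.6 against 24.6 CPM (0.97), Hoxb4 10.9 against 1.56 and 5.74 against 2.93 CPM (1.99), and Hoxb7 and Hoxb8 gave 1.14 and 1.20. Only Hoxb2, at 0.09, stood near its level elsewhere. Summed, the Hoxb genes read 122 against 59.5 CPM in section 1 and 132 against 71.6 CPM in section 2 (0.95, 0.70 to 1.19), the Hoxd sum gave 0.66, the Hoxa sum 0.36 and the Hoxc sum 0.05. With TMM factors the Hoxb sum was 0.70 and the Hoxd sum 0.41, and of the 2 calls only Hoxb3 remained, since Hoxd9 fell below 2-fold. The summed adipocyte markers read 567 and 214 CPM in the region against 106 and 61.1 CPM elsewhere, and in the Nf1Postn callus 75.1 and 352 against 37.0 and 29.8 CPM. The granulocyte markers read 833 and 89.9 CPM against 132 and 103 CPM, and in the Nf1Postn callus 141 and 96.8 against 427 and 156 CPM, so they were raised in section 1 of the control alone. The part of these cells in the Hox levels was not tested.

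In the Nf1Postn callus, the Cadm4 region had 1 call, Hoxd4, at 45.8 against 18.5 CPM in section 1 and 45.3 against 19.5 CPM in section 2 (1.25, 0.75 to 1.73; background 3.18% higher). The median over 20 Hox genes was 0.71 against 0.35 over all genes. With TMM factors this call was lost. The Hoxb sum was less raised than in the control, at 78.5 against 59.3 CPM (0.41, 0.05 to 0.75), and Hoxd9 was not raised, at 23.8 against 30.5 and 35.0 against 34.4 CPM.

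**Figure D3:**
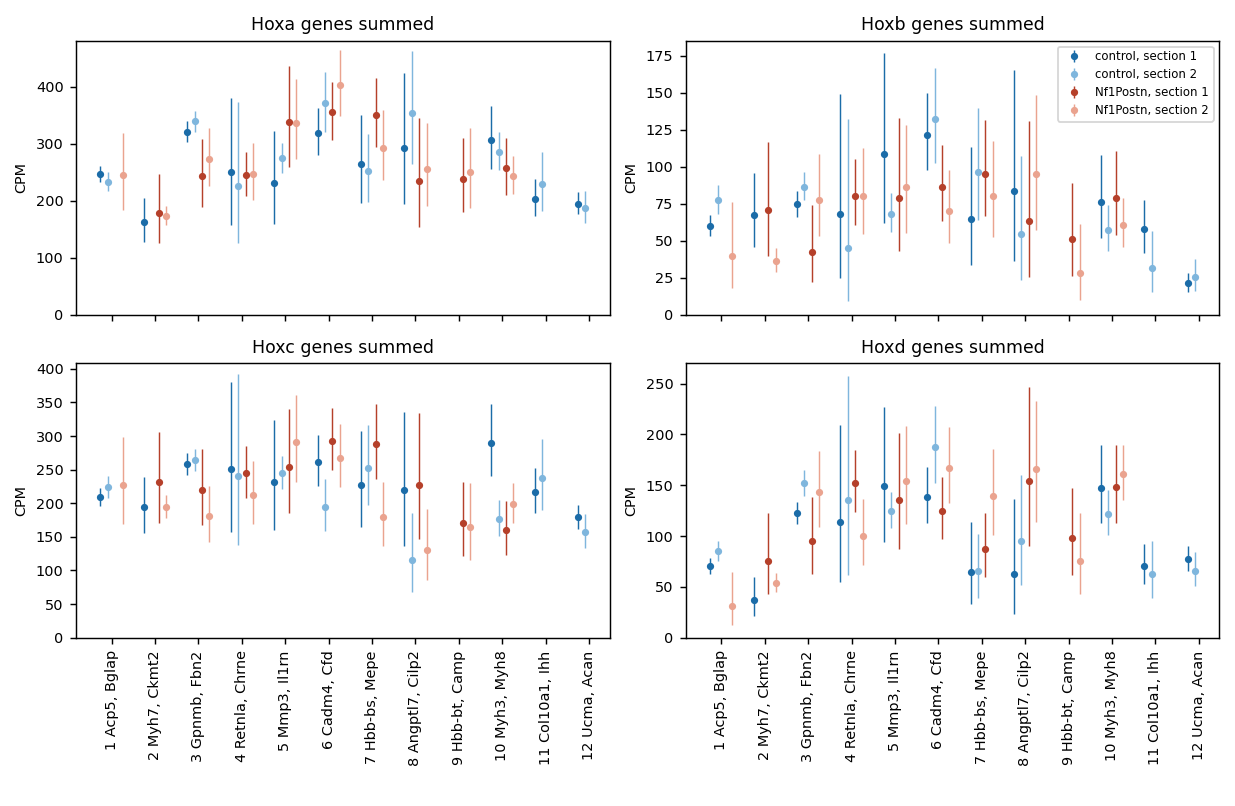
Summed CPM of the Hoxa, Hoxb, Hoxc and Hoxd genes in 12 regions, with 1 point for each genotype and section that held at least 20 spots and bars for exact Poisson 95% intervals. The Hoxb sum of the control runs from 21.4 and 25.5 CPM in the Ucma region to 122 and 132 CPM in the Cadm4 region.

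Hoxc10, a hindlimb gene of the Hoxc cluster, was higher in 1 region of mature muscle. In the Nf1Postn spots led by Myh7 and Ckmt2, where all 7 muscle markers stood at least 2-fold above the other regions, it read 37.8 against 17.5 CPM in section 1 (63 spots, 8 UMIs) and 37.3 against 18.1 CPM in section 2 (602 spots, 91 UMIs), a log2 ratio of 1.07 (0.67 to 1.46). It was the only 1 of 20 Hox genes called higher, or 5%, against 3% of all genes, so the count of calls lies near the background. In the same region of the control, which was not compared because section 2 had 17 spots, Hoxc10 read 54.5 against 18.6 CPM over both sections (1.55, 0.96 to 2.09), with 1 UMI in section 2. In spots led by Tnnt2, Myh3 and Myh8, embryonic myosin genes of regenerating fibers, its log2 ratio was 0.20 in the control, at 22.1 against 19.2 CPM, and -0.96 in the Nf1Postn callus. Another region with all 7 muscle markers at least 2-fold higher, led by genes such as Padi2 and Ucp3, held 179 and 8 Nf1Postn spots. That region was not compared, and its Hoxc10 level is not given here. Its spots count among the other spots above, so the ratios do not set muscle against all other tissue.

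The other Hox genes of the Myh7 region mostly lay below the remaining Nf1Postn spots, with a median of -0.70 against -0.64 over all genes. Hoxa9 read 14.2 against 50.5 CPM and 28.7 against 68.0 CPM (-1.11), Hoxd9 14.2 against 30.5 and 18.0 against 45.7 CPM (-1.12), and Hoxd4 4.73 against 24.0 and 11.9 against 28.2 CPM (-1.21). These 3 of 20 were called lower, against 13.7% of all genes, a share near the background. Muscle markers held 11.5% and 13.4% of the UMIs in these spots. With TMM factors, which moved log2 ratios by 0.76 here, Hoxc10 stood at 1.83 and remained called. It was then the only Hox gene called higher, against 5.98% of all genes. Hoxa9, Hoxd4 and Hoxd9 lay between -0.45 and -0.36 and were not called. The share of calls that were higher was 55.5% in place of 18.0%.

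**Figure D4:**
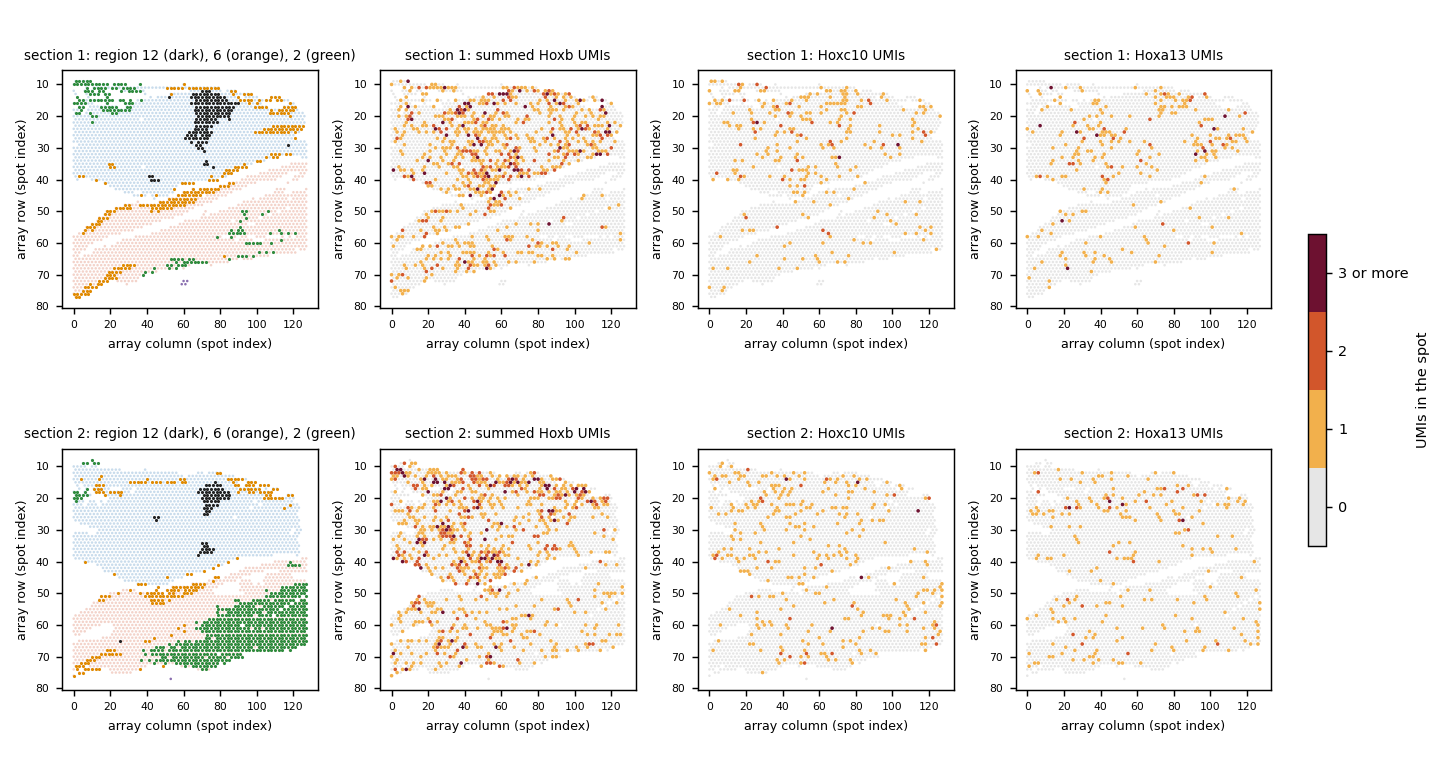
Spots of section 1 (top) and section 2 (bottom) at their array column and row, with the control callus (light blue) above the Nf1Postn callus (light red) in the first panels, which mark regions 12 (dark), 6 (orange) and 2 (green), and with 5 spots of no genotype in violet. The other panels color each spot by its UMIs of the Hoxb genes, Hoxc10 and Hoxa13, which are mostly 0 or 1 for a single gene.

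Spots led by Gpnmb, Fbn2, Ccl7, Sfrp1 and Sfrp2, a mix of macrophage and stromal genes, held the broadest rise in the control without a single call. There 25 of 28 Hox genes lay above the other spots, as did 9077 of the 12562 genes tested. The median was 0.47 for the Hox genes against 0.19 over all genes (background 1.66% higher and 1.97% lower). TMM factors moved log2 ratios by -0.22 here, and no Hox gene was called with them either. Without them, the Hox sum was 777 against 586 CPM in section 1 and 842 against 633 CPM in section 2 (0.41). Hoxa13 went the other way, at 11.3 against 20.9 and 10.4 against 15.5 CPM (-0.76, -1.13 to -0.41). In the Nf1Postn spots of this region, 24 and 44 in number, the Hox sum was 646 against 632 CPM (0.03, -0.11 to 0.17).

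Bone spots led by Acp5, Ocstamp and Bglap, genes of osteoclasts and osteoblasts, had the highest Hoxa13 level of the compared control regions. It read 25.9 against 14.1 CPM in section 1 and 19.4 against 11.8 CPM in section 2 (0.84, 0.55 to 1.12), under the 2-fold rule. Hoxb2 was 0.86 above, at 11.5 against 8.36 and 20.3 against 8.36 CPM. The only call was Hoxb4, lower at 1.06 against 2.60 and 1.77 against 3.55 CPM with 11 UMIs (-1.18; background 4.94% lower), and the Hoxd sum was 76.4 against 115 CPM (-0.60, -0.73 to -0.47). The last call between regions was Hoxb6 in Nf1Postn spots led by Hbb-bt and Camp, lower with 4 UMIs (-1.24, -3.13 to 0.14; background 1.86%).

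A second grouping came with 1344 control spots of section 1, which carry tissue names and SpatialTime values, the latter counting distance from the fracture plane. These names overlap with the regions above, since 110 of 146 progenitor spots lay in the Cadm4 region and 193 of 273 cartilage spots in the Col10a1 region, so they are no separate evidence. The match is not complete. In the Ucma region 74 labelled spots were named cartilage and 73 ossifying perichondrium, while 289 ossifying perichondrium spots lay in the Gpnmb region. The Hox sum was 496 CPM in cartilage, 580 in woven bone, 594 in distal cortical bone, 697 in ossifying perichondrium and 867 CPM in progenitor spots. Progenitor and cartilage spots differed most in the Hoxb sum, at 133 against 41.9 CPM (1.67, 1.21 to 2.14), and in the Hoxd sum, at 160 against 60.9 CPM (1.40, 1.00 to 1.80), and less in the Hoxa sum (0.79) and the Hoxc sum (0.26).

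Along SpatialTime in 5 bins, the Hox sum read 604, 649, 611, 647 and 753 CPM from the fracture plane outward. Hoxa13 read 11.8, 13.8, 16.3, 28.7 and 27.0 CPM, so that the last bin lay 1.20 above the first on the log2 scale (0.52 to 1.87). Hoxb6 gave 0.99 for the same pair and Hoxb2 1.31, though Hoxb2 read 3.89 CPM in the fourth bin, its lowest. Hoxc11 went the other way, from 12.9 to 6.39 CPM (-1.01, -2.23 to 0.04), an interval that included no difference. The order along this axis is also the order of the tissues, and the 2 cannot be told apart.

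Between the calluses as wholes, 29 Hox genes had enough UMIs and none was called, against 5.78% of all genes higher and 1.5% lower in the Nf1Postn callus. Their median log2 ratio, Nf1Postn over control, was 0.00 against -0.05 over all genes, and 15 of 29 lay above 0. The Hoxa sum differed by -0.11, the Hoxb sum by -0.15, the Hoxc sum by -0.07 and the Hoxd sum by 0.04, and each sum changed sign between the sections, above the control in section 1 and below it in section 2. The calluses also held different tissues, so these ratios mix level and tissue. The Ucma region had 148 and 70 control spots against 0 and 1 Nf1Postn spots. The Myh7 region had 95 and 17 against 63 and 602. In counts drawn with known changes for this comparison, the rule found 50 of 50 genes changed 3-fold, 12 of 50 changed 2-fold and 0 of 50 changed 1.5-fold, so changes under 2-fold would not have been called. The changed genes were picked among those with more counts than some Hox genes hold, such as Hoxb4 with 100 UMIs. They changed alike in both sections, so these shares do not carry over to Hox genes with few UMIs.

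Hoxc11, a gene of the tibial segment group, came closest to a call. It read 11.4 and 12.3 CPM in the control sections and 6.35 and 5.01 CPM in the Nf1Postn sections, so both Nf1Postn sections lay below both control sections. The log2 ratio was -1.10 (-1.55 to -0.67), with -0.84 in section 1 and -1.29 in section 2, and with TMM factors it was called. Within regions the ratio was -1.13 in the Cadm4 region on 9 Nf1Postn UMIs, -1.75 in the Myh3 region on 7 and -0.59 in the Gpnmb region on 7, but 0.47 in spots led by Mmp3 and Il1rn, also on 7, so its direction was not shared by all regions. Hoxb2 had the next lowest ratio, at 9.44 and 11.7 CPM against 7.51 and 6.35 CPM (-0.63, -1.05 to -0.24). Hoxa4 stood above, at 17.7 in both control sections against 22.5 and 22.6 CPM (0.35, 0.11 to 0.59). On fewer UMIs, Hoxa6 and Hoxb4 stood further above. Over both sections they read 1.13 and 2.53 CPM in the control against 1.80 and 3.71 CPM in the Nf1Postn callus.

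**Figure D5:**
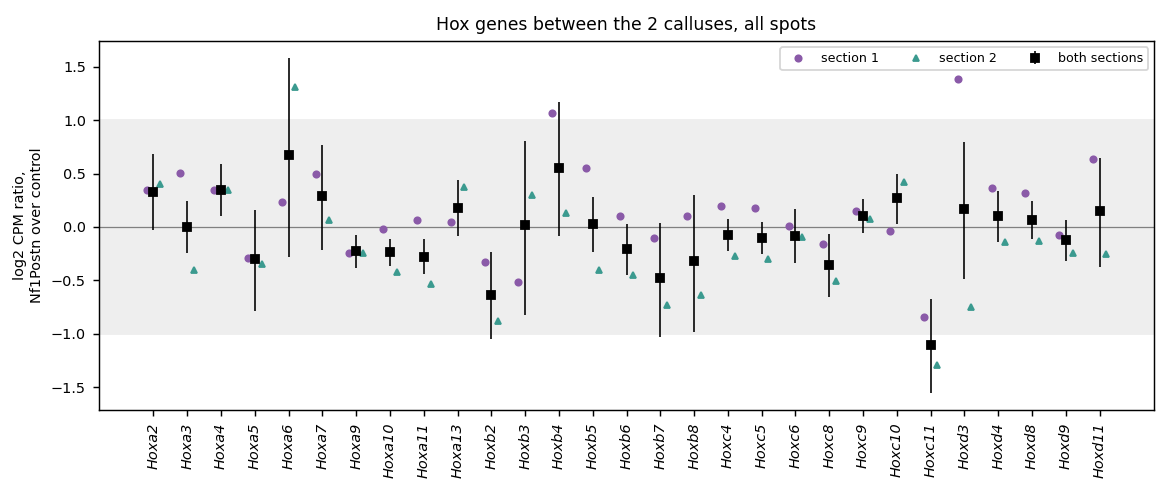
Log2 CPM ratio, Nf1Postn over control, over all spots for the 29 Hox genes with enough UMIs, with squares for both sections together and exact 95% intervals, circles for section 1 and triangles for section 2. The gray band marks ratios under 2-fold, and it holds the squares of every gene but Hoxc11 at -1.10.

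Within the 7 regions that both mice filled, 2 of 62 pairs of a Hox gene and a region met the rule, against 0.574% of pairs over all genes called higher and 0.707% lower. In the Cadm4 region Hoxd9 read 58.8 and 84.2 CPM in the control against 23.8 and 35.0 CPM in the Nf1Postn callus (-1.25, -1.90 to -0.64), 1 of 13 Hox genes tested against 0.486% of all genes called lower there. In spots led by Hbb-bs, Hba-a2 and Igkc, blood genes with the bone genes Mepe and Sost further down, Hoxa11 read 48.8 and 20.7 CPM in the control, on 15 UMIs, against 97.7 and 43.3 CPM in the Nf1Postn callus, on 51 UMIs (1.20, 0.35 to 2.14), 1 of 6 tested against 0.483% called higher. For Hoxa11 the sections of 1 mouse differed about as much as the mice did, and section 2 of the Nf1Postn callus lay below section 1 of the control.

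The partners and regulators of Hox proteins were read alongside. Of 9 Hox cofactors (the Pbx, Meis and Pknox genes) 8 had enough UMIs, and Pknox2 was higher in the Nf1Postn callus, at 36.5 against 14.5 CPM (1.33), where 5.78% of all genes were called higher and 1.5% lower. Of 29 limb patterning factors 25 entered, with Lhx2 higher (1.94) and Pitx1 (-1.34), Shox2 (-2.20), Lmx1b (-1.30) and Irx5 (-1.49) lower. Of 14 chromatin regulators known to act on Hox genes, such as Kmt2a and Ezh2, all entered and Cbx7, a Polycomb protein, was higher, at 72.8 against 30.7 CPM (1.25). With TMM factors Pknox2 and Cbx7 were no longer called, Dlx5 (-1.42) and Dlx6 (-1.58) were called lower, and the other 5 remained. How far the different tissues that each callus held enter these ratios was not tested.

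Across control regions these lists had 10 calls higher and 19 lower, with the shares of all genes called the same way beside them. In each region 8 cofactors, 23 limb patterning factors and 14 chromatin regulators entered. Over all genes, 2.26% of pairs of a gene and a region were called higher and 3.43% lower. Whether the lists differ from these shares was not tested. In the Acp5 bone spots Irx5 read 185.5 against 47.7 CPM (1.96), and Dlx5 (1.28) and Dlx6 (1.56), homeobox factors of bone-forming cells, were also higher (1.66%), while Meis2 (-1.24), Emx2 (-1.66) and Meox2 (-1.40) were lower (4.94%). In the Cadm4 region, where the Hoxb sum was high, Meox2 (1.27) and Cbx7 (1.33) were higher (2.67%) and Irx5 (-1.68) and Dlx6 (-1.54) lower (1.53%). In the Ucma region, where the Hoxb sum was low, Meis2 (-1.36), Tbx2 (-1.61), Tbx3 (-2.47), Irx5 (-1.49), Meox2 (-1.13) and Cbx7 (-2.12) were lower (14.6%). These were 1 of 8 cofactors, 4 of 23 limb patterning factors and 1 of 14 chromatin regulators. The shares were 12.5%, 17.4% and 7.14%, on both sides of the background. With TMM factors Meis2, Irx5 and Meox2 were no longer called in the Ucma region, nor were Meox2 and Cbx7 in the Cadm4 region, Meis2 and Lmx1b in the Gpnmb region, Meis2 in the Acp5 spots, and Gli3 and Alx4 in the Col10a1 region. In the Gpnmb region Meis2 and Lmx1b were higher (both 1.26; 1.66%) and Irx5 lower (-1.65; 1.97%). The Myh3 region had Pknox2 (1.67) and Tbx3 (1.24) higher (4.59%) and Shox2 (-1.56), Irx5 (-2.02) and Twist1 (-1.14) lower (2.99%). The other calls were Emx2 in the Mmp3 region (1.27; 0.565%), Meis2 (-1.42), Gli3 (-1.42) and Alx4 (-1.73) in the Col10a1 region (3.5%), where Meis2 and Alx4 held 3 and 4 UMIs, and Suz12 on 3 UMIs in the Angptl7 and Cilp2 region (-1.27, -3.55 to 0.28; 1.24%).

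In the Nf1Postn callus the Myh7 muscle region, where Hoxc10 was high, had 12 list calls, all lower (13.7%). They were 3 of 8 cofactors, Pbx3 (-2.26), Meis3 (-2.35) and Pknox1 (-1.41), and 9 of 19 limb patterning factors, Tbx4, Tbx2, Hand2, Irx5, Twist1, Prrx1, Prrx2, Dlx5 and Dlx6, from -1.43 for Prrx1 to -3.43 for Dlx6. With TMM factors, under which 4.80% of all genes were lower, 7 of the 12 remained called, Pknox1, Tbx4, Tbx2, Hand2 and Prrx1 fell short, and Pknox2 was called higher. In spots led by Hbb-bs, Hba-a2 and Igkc, where all 5 erythroid and 4 of 7 bone formation markers stood at least 2-fold above the other regions, Irx5 (2.60), Shox2 (2.12), Dlx6 (1.92) and Dlx5 (1.58) were higher (2.94%). The Cadm4 region had Meox2 (1.06), Msx1 (1.18) and Rnf2 (1.42) higher (3.18%) and Tbx3 lower (-1.36; 4.43%), and with TMM factors only Tbx3 of these 4 remained called. Tbx4 was higher in the Gpnmb (1.70; 1.98%) and Mmp3 (1.75; 1.83%) regions, and in the latter Meis2 (1.46), Twist1 (1.11) and Dlx6 (1.12) were too. Irx5 (-1.57), Dlx5 (-1.60) and Dlx6 (-1.26) were lower in the Myh3 region (1.94%). The remaining calls rested on few UMIs, from 3 to 8, for Lhx2 (1.83), Hand2 (1.95), Emx2 (2.23) and Rnf2 (1.21) in the Angptl7 region (2.37%) and Shox2 in spots led by Retnla and Chrne (-1.10; 0.449%), except Ezh2 with 38 UMIs in the Hbb-bt and Camp spots (1.41; 2.45%). TMM factors also ended the calls of Meis2, Twist1 and Dlx6 in the Mmp3 region, of Dlx5 in the Hbb-bs region and of Lhx2, Emx2 and Rnf2 in the Angptl7 region.

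Between the mice within regions, Pknox2 was higher in the Nf1Postn spots of the Cadm4 region, at 33.9 against 10.4 CPM (1.71; background 0.703%), and Cbx7 in the Hbb-bs region, at 69.8 against 29.5 CPM (1.24; 0.483%). Dlx5 was lower in the Myh3 region (-1.63; 0.994%). In the Gpnmb region Shox2 (-2.12), Pitx1 (-1.49) and Meis1 (-1.32) were lower (1.19%), each on 3 or 4 Nf1Postn UMIs. Pknox2, Cbx7, Pitx1 and Shox2 thus moved the same way in a region as over the whole callus, and the spots are part of both values.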

How the data were processed

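Mouse probe pairs for fixed, EDTA-decalcified tissue were hybridized to 2 sections. Per the submitters' processing notes, reads were processed with Space Ranger 1.3.0 and mm39. The authors deposited the UMIs of every gene in every spot of each section, not normalized. They were handled here as the expected counts of the authors, since entries that join several Ensembl IDs can hold parts of a count (no Hox gene is among them). A row without a symbol, with at most 6.81e-05% of UMIs, was left out. The genotype of each spot was also deposited, the calluses being recognized by their different placement in the block. How spots near the border were assigned is not given in the sources used here. Tissue names and SpatialTime came from the paper's supplement, for grouping only.

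Levels are CPM of the spots summed. Ratios carry exact conditional binomial 95% intervals, levels exact Poisson ones. Genes entered with at least 20 UMIs in each section over both groups compared. Regions came from Leiden clustering (leidenalg 0.10.2, 20 principal components of log2(CPM + 1) centered by section, 15 neighbors, resolution 0.5, Hox and listed genes left out). No test was possible with 1 mouse per genotype. Values are given for the 12 Hox genes with the most UMIs and every called gene. The rule was tested on simulated counts: of 13277 unchanged genes, 99.9% stayed uncalled. These counts held no difference between sections beyond counting error. Alternatives included TMM factors (equal to those of edgeR 4.0.16), other clusterings, filters and thinning to 1000 UMIs per spot (seed 11). Hox genes, gene lists and cell markers were chosen with earlier results of these data known. The values of 1 gene and some sequences are not reported here.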

Additional observations from a re-analysis of the deposited data

Results flagged for a closer look

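Hoxd9 moved in opposite directions between the mice in 2 regions. In the Myh3 region it read 61.8 CPM in the Nf1Postn callus against 34.9 CPM in the control, a log2 ratio of 0.825 with 0.43 and 0.97 in the sections, while in the Cadm4 region the ratio was -1.25 with -1.30 and -1.27. Both sections of each region pointed the same way within the region and the opposite way between them. With 1 mouse per genotype the difference between the regions was not tested.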

How the results depend on the processing

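Each section holds both mice, so ratios are given within sections, but no paired test was possible because each genotype is 1 mouse. Requiring 1 section alone in place of both relaxes the rule by construction: calls between control regions were then 18 to 29 higher and 35 to 37 lower (2 and 9 with both), those between Nf1Postn regions 8 to 23 and 32 to 34 (2 and 4), and those between genotypes 1 to 4 higher (Hoxa6 in section 2 alone, Hoxb4, Hoxd1 and Hoxd3 among those of section 1 alone) and 0 to 1 lower (Hoxc11 without section 1). List calls came to 3 to 5 higher and 5 to 11 lower between the calluses, Nf1Postn over control (3 and 4), and to 30 to 54 higher and 56 to 61 lower between control regions (10 and 19). For these counts, and for those below other than with TMM factors, no share of all genes is given. They describe how calls depend on the setting and are not read against a background.

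With TMM factors, calls between control regions were 1 higher and 4 lower, those between Nf1Postn regions 1 higher and 5 lower, and those of the Ucma region 4. The 5 were Hoxa4 and Hoxc10 in the Gpnmb region, Hoxc8 and Hoxc9 in the Angptl7 region and Hoxb6 in the Hbb-bt region, and only Hoxb6 was among the 4 lower without TMM. With TMM factors, 6.22%, 5.28% and 3.98% of all genes were lower in these Nf1Postn regions, in the same order. Hoxc10, higher in the Myh7 region, stood against 5.98% of all genes. In the control, Hoxb3 in the Cadm4 region stood against 1.29% higher and the 4 of the Ucma region against 8.40% lower. Between genotypes 1 gene (Hoxc11) was lower, with ratios shifted by -0.14, background shares of 4.74% higher and 2.54% lower and 65.1% of calls higher in place of 79.4%. TMM factors for the lists and the cluster sums were chosen after seeing the data. List calls were then 1 higher and 6 lower between the calluses and 6 higher and 17 lower between control regions, the latter without a summed share of all genes. The cluster sums were, for Hoxa, Hoxb, Hoxc and Hoxd, 0.10, 0.70, -0.20 and 0.41 in the Cadm4 region and -0.14, -1.32, -0.037 and -0.14 in the Ucma region.

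At resolution 0.3 the region closest to the Ucma region shared few spots with it (Jaccard index 0.173). It was also the closest to the Col10a1 region, with an index of 0.588. This joint region had 2 calls, Hoxa4 turned to 0.18, and the sums were -0.41, -0.72, -0.091 and -0.74. The Hoxb sum of the Cadm4 region, which merged with others, was 0.25. Calls were 1 higher and 2 lower in control regions and 1 higher in Nf1Postn regions. At resolution 1.0 the region closest to the Ucma region (Jaccard index 0.493) had 2 calls, a Hoxc sum of -0.22 and a Hoxd sum of -0.85, and 1 Nf1Postn call was higher. Clustering on all genes left 1 control call higher.

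Mean differences of log2(CPM + 1) over spots, in place of summed counts, gave 9 higher and 15 lower control calls, none of them in the Ucma region (0 calls), 15 higher and 0 lower Nf1Postn calls, and 2 genes lower between genotypes (Hoxa9 and Hoxa10). Without a filter on low counts there were 5 higher control calls and 6 higher and 7 lower Nf1Postn calls, and with at least 50 UMIs in each section 1 higher control call. Both genotypes together gave 16 lower calls. By section, the Hoxc sum was -0.23 to 0.23 in the Cadm4 region and -0.57 to -0.38 in the Ucma region, and the Hoxd sum there -0.87 to -0.29. In all, 255 recomputed values counted as the same, 78 as moved and 1 as reversed, and among the values that answer a comparison 106 stayed and 62 moved. A count of genes was the same within a set fold of the main count, and a ratio within its main interval. A cluster sum between genotypes was the same within the spread between sections. Such sums had no label for a reversal, although each of them changed sign between the sections. Depth limits low genes: in a spot, Hox counts are mostly 0 or 1. Genes under 20 UMIs in a section, over both groups compared, did not enter. A called gene could thus hold few UMIs in the region itself, such as Hoxb4 with 3 in the Ucma region.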
